A study of Mus musculus with 8 samples.

Results

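Of the 30153 genes listed for each heart library, 10 are described here because they encode the core machinery by which mitochondria fuse, divide and are cleared. Mfn1, Mfn2 and Opa1 act in fusion, Dnm1l, Fis1 and Mff in fission, and Pink1, Bnip3, Bnip3l and Fundc1 in mitophagy. They were listed by function, with no measured value in the rule, although earlier results of these data were known when the list was drawn up. All 10 passed the filter on low values, which 10969 genes passed.

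The study asked how a western diet alters heart transcripts in aged mice that overexpress the human angiotensin II type 1 receptor. In the western diet group, 4 libraries came from hearts of aged mice of strain C57/BL6 that carried haplotype II of that receptor gene and were given a western diet. In the control group, 4 libraries came from hearts of aged C57/BL6 mice with the same haplotype II and no western diet in their label, so there is no group without the human gene. The labels give no promoter for the human gene, sex, exact age or length of feeding, and the human transcript is not analysed here. Whether every library comes from its own animal is not said, and the p-values below therefore reflect variation among these samples, which may be technical.

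Mitochondria in a cardiomyocyte lie packed between the myofibrils and are renewed by cycles of fusion, fission and selective autophagy. The mitofusins Mfn1 and Mfn2 join outer membranes and Opa1 joins inner membranes, while the GTPase DRP1, made from Dnm1l, is recruited by Mff and Fis1 to constrict the organelle. Damaged mitochondria are marked for autophagy by the kinase PINK1, which phosphorylates ubiquitin on their surface, or by outer membrane receptors such as BNIP3, NIX (made from Bnip3l) and FUNDC1 that bind LC3 family proteins directly.

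The values are TPM, transcripts per 1000000 transcripts, which are scaled to transcript length. Levels of different genes can therefore be set side by side, but read depth is unknown. Differences are given on the log2(TPM + 1) scale, western diet minus control, with standard errors and adjusted p-values from limma across all 10969 genes. A gene was called at an adjusted p under 0.05.

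None of the 10 genes was called by limma, against 33 of all genes tested, or 0.301% (0.228% higher and 0.0729% lower with western diet). At an unadjusted limma p under 0.05 there was 1 of the 10, Bnip3, against 11.7% of all genes tested (9.20% in the higher direction). Bnip3 was also the single member whose groups did not overlap, with western diet higher, and 4.85% of genes tested had that pattern, with another 1.75% lower without overlap. The mean was higher with western diet for 7 of the 10 and lower for 3 (5 and 5 with median-of-ratios scaling, 6 and 4 with quantile scaling), and 66.4% of all genes tested had a higher mean. The median difference over the 10 was 0.08, against 0.06 over all genes tested. In these bulk samples, fewer cells of a type and less RNA per cell cannot be told apart.

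**Figure D1:**
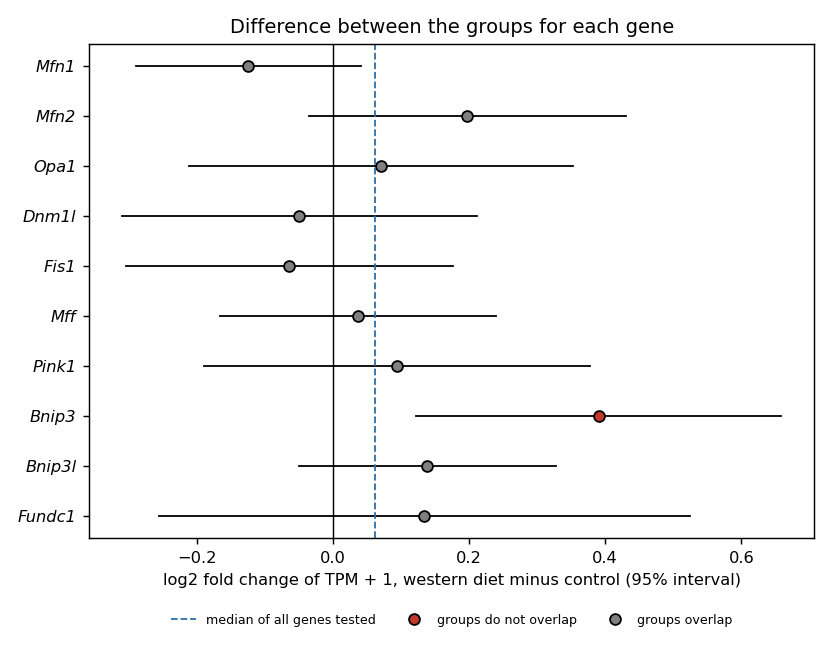
Log2 fold change of TPM + 1 (western diet minus control) on the horizontal axis for each of the 10 genes, with points for the limma estimate, bars for its 95% interval and a dashed line at the median of all genes tested, 0.06. The interval of Bnip3 lies above 0, from 0.12 to 0.66, and those of the other 9 genes include 0.

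Some facts of the libraries touch these results. Ventricular markers were high throughout, for example Tnnt2 at 5968 to 8106 TPM with western diet and 7954 to 8164 TPM in controls. Y-linked Eif2s3y reached at most 0.0231 TPM in western diet replicates 1, 2 and 3. Its level was 22.3 TPM in western diet replicate 4, and controls had 21.1 to 29.0 TPM. Sex and diet therefore cannot be told apart for 3 of the 4 western diet libraries. The atrial light chain Myl7 reached 335 TPM in western diet replicate 2, with 184 TPM in control replicate 1 and 1403 TPM in control replicate 3, against at most 2.87 TPM in the other libraries. The summed red cell markers Hbb-bs, Hba-a1 and Alas2, all 3 above 0 in every library, were at 1301 to 9056 TPM with western diet and 1598 to 2963 TPM in controls. The summed kidney markers Kap, Umod, Miox and Slc34a1 were at 9.02 to 79.0 TPM with western diet and 0 to 0.685 TPM in controls. In the controls Umod, Miox and Slc34a1 were listed at 0. The 79.0 TPM was in western diet replicate 4, and the other western diet libraries had at most 14.2 TPM. Macrophage and smooth muscle markers differed too. The summed macrophage markers Cd68, Adgre1 and C1qa, all 3 above 0 in every library, were at 51.5 to 87.4 TPM with western diet and 42.4 to 50.3 TPM in controls, without overlap. Most of that sum was C1qa, at 43.2 to 75.9 TPM with western diet and 35.4 to 41.7 TPM in controls. Taken singly, Cd68 and Adgre1 overlapped between the groups. Of the smooth muscle markers, Acta2 was at 47.9 to 117 TPM with western diet and 26.3 to 39.2 TPM in controls, while Tagln was at 7.92 to 10.9 TPM with western diet and 16.2 to 21.1 TPM in controls, so both separated the groups but in opposite directions. Their summed level with Myh11 was 60.9 to 130 TPM with western diet and 45.8 to 64.3 TPM in controls. The part of the kidney, macrophage and smooth muscle transcripts in the results was not tested, and that of atrial transcripts only by leaving out the 3 libraries that hold them.

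By level, averaged over the 8 libraries, Pink1 was highest at 308 TPM (range 262 to 393) and Fundc1 lowest at 13.8 TPM (10.2 to 18.8). Between them came Mfn2 at 200, Mfn1 at 154, Bnip3 at 107, Fis1 at 105, Mff at 78.8, Bnip3l at 47.6, Opa1 at 39.7 and Dnm1l at 26.8 TPM. Ranges over the 8 libraries did not overlap between Pink1 and Mfn2, Fis1 and Mff, Mff and Bnip3l, Opa1 and Dnm1l, or Dnm1l and Fundc1. Mfn2 and Mfn1, Mfn1 and Bnip3, Bnip3 and Fis1, and Bnip3l and Opa1 had overlapping ranges. The order thus puts the kinase and the mitofusins above the GTPases of inner membrane fusion and of fission.

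**Figure D2:**
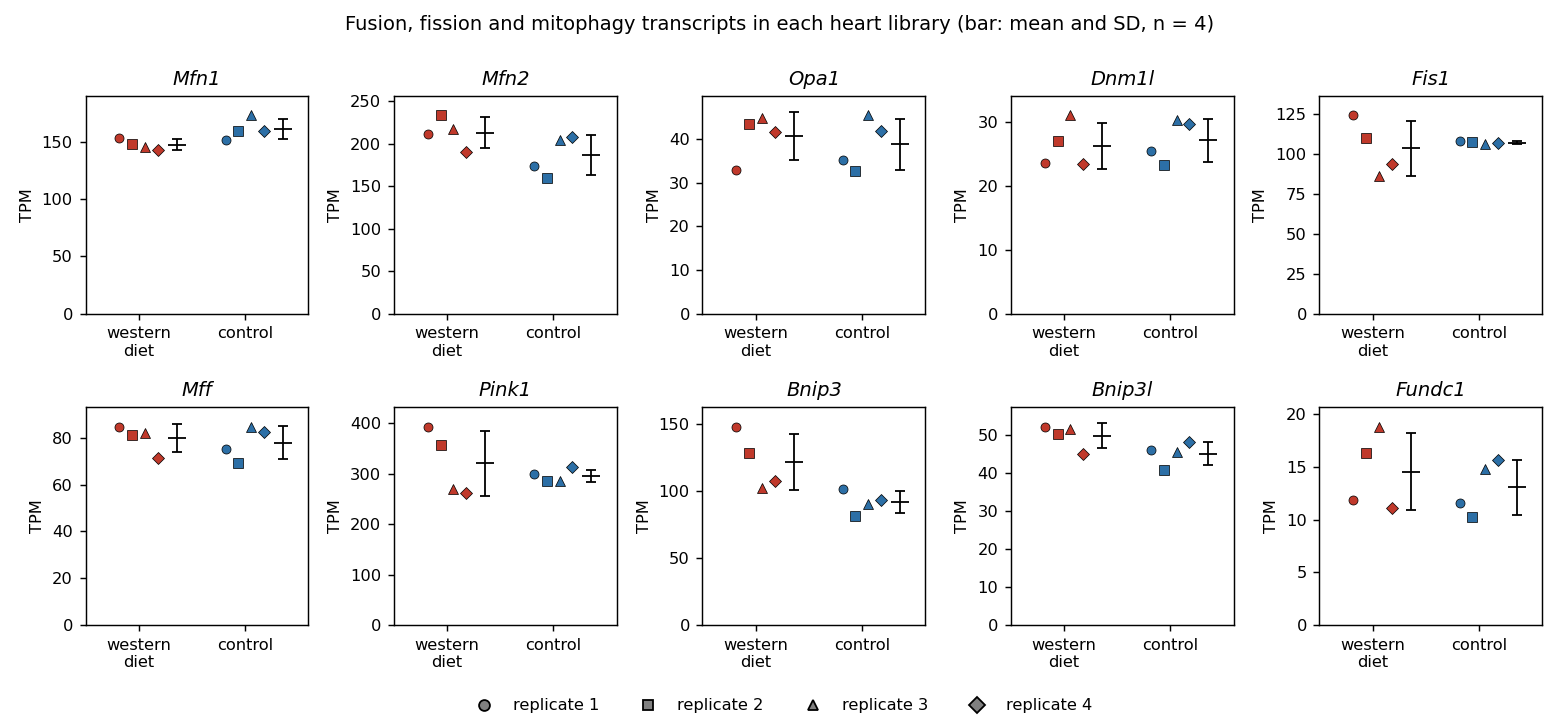
TPM of each of the 10 genes in each library, with the 4 western diet libraries left of the 4 controls in every panel, 1 point a library and bars for the group mean and SD (n = 4 each). For Bnip3 the western diet points lie at 102 to 148 TPM, above the control points at 81.2 to 102 TPM, and the groups overlap in the other panels.

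Mfn1, on chromosome 3 (ENSMUSG00000027668, chr3:32529465-32579239, GRCm38), encodes a mitofusin that tethers opposing outer membranes. It was at 154, 148, 146 and 142 TPM in western diet libraries, against 152, 160, 173 and 159 TPM in controls. The lowest control lay inside the western diet range, and the other 3 controls lay above all western diet libraries. Mean levels were 147 ± 4.72 TPM with western diet and 161 ± 8.88 TPM in controls (SD, n = 4 each). The difference was -0.12 (SE 0.08, 95% interval -0.29 to 0.04, limma adjusted p = 0.562). Mfn1 varied little within groups: its residual SD on the log2 scale was 0.064, and 1.56% of tested genes had a lower one.

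Mfn2 (ENSMUSG00000029020, chr4:147873599-147904704) encodes the other mitofusin, which also tethers mitochondria to the endoplasmic reticulum. Its levels were 211, 233, 217 and 190 TPM in western diet libraries, against 174, 159, 205 and 208 TPM in controls. Western diet replicates 1, 2 and 3 lay above all controls, and replicate 4 lay among them. With means of 213 ± 17.8 TPM and 186 ± 23.7 TPM (SD, n = 4 each), western diet first, the difference was 0.20 (SE 0.11, -0.04 to 0.43, limma adjusted p = 0.504). Among libraries with Y-linked transcripts alone it was 0.04 (SE 0.15), with 1 western diet library.

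Set against each other within a library, the mitofusins separated the groups although neither did alone. The ratio of Mfn2 to Mfn1 TPM was 1.38, 1.58, 1.49 and 1.33 in western diet libraries, against 1.15, 0.997, 1.18 and 1.30 in controls. All 4 western diet ratios lay above all 4 control ratios, though western diet replicate 4 and control replicate 4 were close. The means were 1.45 ± 0.112 with western diet and 1.16 ± 0.126 in controls (SD, n = 4 each). The difference of means was 0.288, and it was 0.177 among libraries with Y-linked transcripts. A ratio within a library shows unequal levels of the pair and not which of them differs, and no test was run on it. How often a ratio of other tested genes separates the groups was not counted, and the other ratios given below overlapped. Coding transcripts of Mfn1 were shorter than those of Mfn2 (median 1602 and 3235 bases). The part of transcript length in the ratio was not tested.

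**Figure D3:**
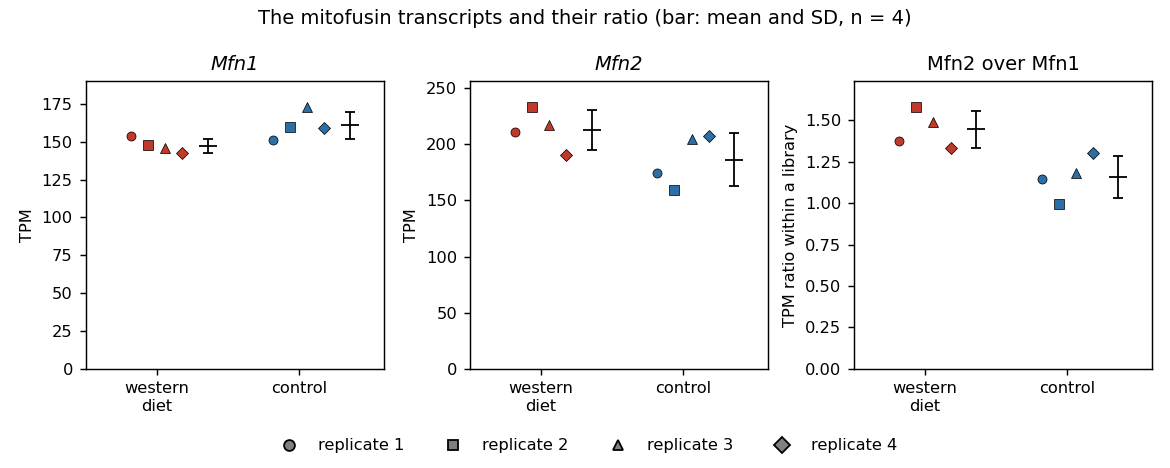
TPM of Mfn1 and of Mfn2 and their ratio within each library (vertical axes), western diet left of control, 1 point a library, with bars for the group mean and SD (n = 4 each). Western diet ratios run from 1.33 to 1.58 and control ratios from 0.997 to 1.30.

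The promoter windows of the mitofusins, 250 bases before to 50 bases after the start, are shown because the pair differ in the short motifs they hold. Sequences are RefSeq's on GRCm38.p6, 5′ to 3′ on the gene's strand. Capitals mark CCGGAAG, a core bound by ETS family factors such as GABP, in Mfn1 (chr3:32529232-32529531, plus strand). In Mfn2 they mark ACGTG, the core bound by hypoxia-inducible factors, in the second of its 3 windows (chr4:147904649-147904948, minus strand).
Mfn1: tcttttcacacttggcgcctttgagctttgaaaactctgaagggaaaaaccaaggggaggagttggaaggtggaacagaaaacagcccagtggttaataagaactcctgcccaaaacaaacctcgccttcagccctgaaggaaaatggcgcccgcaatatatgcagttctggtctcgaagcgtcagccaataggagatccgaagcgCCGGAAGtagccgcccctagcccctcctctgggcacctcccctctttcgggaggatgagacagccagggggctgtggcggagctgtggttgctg
Mfn2: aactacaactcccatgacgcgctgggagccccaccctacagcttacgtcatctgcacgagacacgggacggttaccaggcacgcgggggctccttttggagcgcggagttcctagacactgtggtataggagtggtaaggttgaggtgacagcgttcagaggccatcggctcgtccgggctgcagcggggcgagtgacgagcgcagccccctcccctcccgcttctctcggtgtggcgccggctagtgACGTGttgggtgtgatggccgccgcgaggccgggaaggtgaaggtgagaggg
On either strand, CCGGAAG occurs in 8.86% and ACGTG in 19.6% of all windows of this length in the RefSeq table. Windows were found for 9 of the 10 genes. CCGGAAG was also in a window of Dnm1l and of Fis1, and the motif of the respiratory gene factor NRF1 (GCGCA, any base, GCGC), present in 4.60% of all windows, was in those of Opa1, Pink1 and Bnip3. A match describes the letters only.

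Opa1 (ENSMUSG00000038084, chr16:29579334-29654884) encodes the dynamin-like GTPase that fuses inner membranes and shapes cristae. It was at 32.8, 43.4, 44.9 and 41.7 TPM in western diet libraries, against 35.1, 32.6, 45.4 and 41.9 TPM in controls. The lowest values, in western diet replicate 1 and control replicates 1 and 2, came from both groups. These 3 libraries were also those in which short transcripts (under 1000 bases) stood higher than long ones (at least 4000 bases), by 0.11, 0.09 and 0.12 on the centred log2 scale, while the difference was negative in the other 5, from -0.15 to -0.01. Coding transcripts of Opa1 had a median of 3191.5 bases, so it belongs to neither length class. Members of similar length did not all share its pattern. In western diet replicate 1, Dnm1l (3264 bases) was low in its group at 23.6 TPM. Mfn2 (3235 bases) and Bnip3l (3248.5 bases) lay above all controls there, at 211 and 52.3 TPM. The part of transcript length in the level of Opa1 was not tested. The group difference was 0.07 (SE 0.13, limma adjusted p = 0.880).

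Among 12 tested genes of 13 listed as fusion partners and OPA1 processing, 0 were called by limma. An unadjusted p under 0.05 was found for 2, against 11.7% of all genes tested. Means were higher for 6 and lower for 6 (4 and 8 with median-of-ratios scaling, 3 and 9 with quantile scaling). Stoml2, an inner membrane scaffold protein, was at 70.1 ± 4.70 TPM with western diet and 79.8 ± 2.44 TPM in controls, without overlap (difference -0.19, SE 0.08, limma adjusted p = 0.389, and -0.29 among libraries with Y-linked transcripts). Miga2, an outer membrane protein that promotes fusion, was at 26.4 ± 3.43 TPM with western diet and 20.4 ± 2.60 TPM in controls, with overlap (difference 0.36, SE 0.12, limma adjusted p = 0.261). Among libraries with Y-linked transcripts the difference of Miga2 was 0.18 (SE 0.16). Afg3l2, a subunit of the inner membrane AAA protease, was at 59.1 ± 1.53 TPM and 55.0 ± 3.55 TPM, western diet first, without overlap (difference 0.10, limma adjusted p = 0.655).

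The 10 genes of cristae organisation, which include the MICOS complex at crista junctions, had lower means with western diet in 7 cases (9 with median-of-ratios and 8 with quantile scaling). None was called by limma, and 1, Minos1, had an unadjusted p under 0.05, against 11.7% of all genes tested. Minos1, a core MICOS subunit, was at 314 ± 31.1 TPM with western diet and 383 ± 19.9 TPM in controls (SD, n = 4 each). All western diet libraries, at 280 to 355 TPM, lay below all controls, at 358 to 402 TPM, and the difference was -0.29 (SE 0.09, limma adjusted p = 0.231). It was -0.45 (SE 0.09) among libraries with Y-linked transcripts. A second gene of the list, known by a clone name, also lay lower without overlap, as did 1.75% of all genes tested. Chchd6, another MICOS subunit, was at 7.49 ± 1.79 TPM with western diet and 5.89 ± 0.305 TPM in controls, and Samm50, an outer membrane assembly protein that binds MICOS, at 35.4 ± 3.23 TPM and 38.0 ± 1.29 TPM, western diet first, both with overlap.

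Dnm1l (ENSMUSG00000022789, chr16:16312230-16358959), the gene of the fission GTPase DRP1, was at 23.6, 27.1, 31.1 and 23.4 TPM in western diet libraries, against 25.5, 23.3, 30.3 and 29.7 TPM in controls. The groups covered almost the same range. The difference was -0.05 (SE 0.12, 95% interval -0.31 to 0.21, limma adjusted p = 0.913).

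Mff (ENSMUSG00000026150, chr1:82724890-82752394), the main DRP1 receptor of the outer membrane, was at 84.8, 81.0, 82.1 and 71.2 TPM in western diet libraries, against 75.3, 69.1, 84.5 and 82.6 TPM in controls. High and low values again occurred in both groups. Its difference was 0.04 (SE 0.09, limma adjusted p = 0.917).

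Fis1 (ENSMUSG00000019054, chr5:136953275-136966234), a tail-anchored outer membrane protein of fission, was at 124, 110, 86.2 and 93.6 TPM in western diet libraries, against 108, 107, 106 and 107 TPM in controls. The control libraries were nearly equal and lay inside the wide western diet range. Means were 103 ± 16.9 TPM with western diet and 107 ± 0.908 TPM in controls (SD, n = 4 each), with a difference of -0.06 (SE 0.11, limma adjusted p = 0.869).

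The sum of the 3 fission genes divided by that of the 3 fusion genes, in TPM, was 0.522 ± 0.0425 with western diet and 0.551 ± 0.0270 in controls (SD, n = 4 each), and the groups overlapped. Of 14 fission partners, 12 were tested and 0 were called by limma. None had an unadjusted p under 0.05, against 11.7% of all genes tested. Akap1, a kinase anchor of the outer membrane, was at 52.9 ± 7.14 TPM with western diet and 45.3 ± 3.46 TPM in controls. Mief1, a DRP1 receptor, was at 4.66 ± 0.453 TPM and 4.04 ± 0.299 TPM, and Mul1, an outer membrane ubiquitin and SUMO ligase, at 16.8 ± 1.01 TPM and 15.2 ± 1.23 TPM, western diet first. All 3 had overlapping groups.

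Pink1 (ENSMUSG00000028756, chr4:138313409-138326307) encodes the kinase that accumulates on depolarised mitochondria. It was at 393, 356, 269 and 262 TPM in western diet libraries, against 298, 286, 286 and 312 TPM in controls. Western diet replicates 1 and 2 lay above, and 3 and 4 below, all controls. Means were 320 ± 64.8 TPM with western diet and 296 ± 12.4 TPM in controls (SD, n = 4 each), and the difference was 0.09 (SE 0.13, limma adjusted p = 0.832).

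Replicates 1 and 2, which had the highest Pink1 and Fis1 of the western diet group, also had its most red cell transcripts, 9056 and 3329 TPM against 1301 and 1619 TPM in replicates 3 and 4. Controls had 1598 to 2963 TPM. Without these 2 libraries, the difference of Pink1 was -0.15 and that of Fis1 -0.25, neither called by limma. Because they held the highest values of their group for both genes, leaving them out had to lower both differences. Control replicate 1, at 2963 TPM of red cell markers, was kept, so the choice was not by red cell level alone. That comparison was added after the marker levels were seen.

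**Figure D4:**
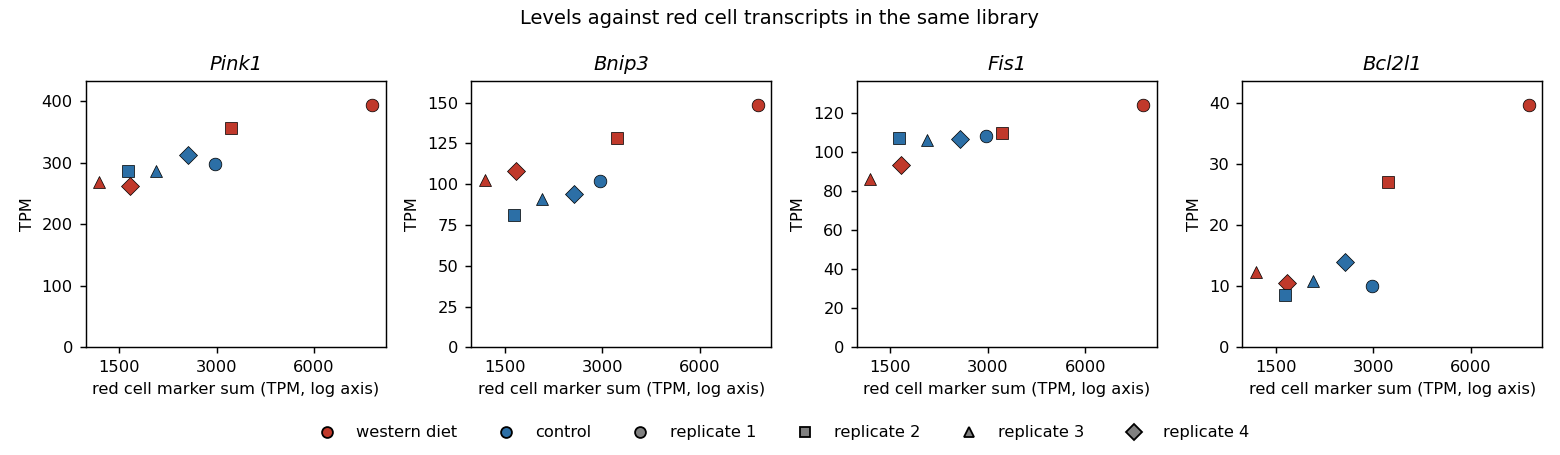
TPM of Pink1, Bnip3, Fis1 and Bcl2l1 (vertical axes) against the summed TPM of the red cell markers Hbb-bs, Hba-a1 and Alas2 (horizontal log axis), 1 point a library, western diet in red and control in blue. Western diet replicate 1, at 9056 TPM of red cell markers, is the highest library for all 4 genes.

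In the wider PINK1 pathway, 18 of 19 genes were tested and 0 were called by limma. There was 1 at an unadjusted p under 0.05, against 11.7% of all genes tested. Means were higher with western diet for 13 and lower for 5 (10 and 8 with median-of-ratios scaling, 9 and 9 with quantile scaling). Usp30, a deubiquitinase of the outer membrane that restrains mitophagy, was at 2.25 ± 0.218 TPM with western diet and 1.92 ± 0.235 TPM in controls, and Nbr1, an autophagy receptor, at 32.6 ± 3.31 TPM and 29.0 ± 2.88 TPM, western diet first, both with overlap.

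Bnip3 (ENSMUSG00000078566, chr7:138890836-138909519) encodes a mitophagy receptor that is induced by hypoxia in many cells. It was at 148, 128, 102 and 108 TPM in western diet libraries, against 102, 81.2, 90.9 and 93.8 TPM in controls. The lowest western diet library and the highest control almost touched, at 102.3 and 101.7 TPM. Means were 122 ± 21.0 TPM with western diet and 91.9 ± 8.46 TPM in controls (SD, n = 4 each). The difference was 0.39 (SE 0.12, 95% interval 0.12 to 0.66), a fold change of 1.31 in TPM + 1. The unadjusted limma p was 0.00845 and the adjusted p 0.231, so Bnip3 was not called. A two-sided exact permutation test gave p = 0.0286, unadjusted and the smallest value that 70 assignments allow. That value follows from the lack of overlap and adds nothing to it. Of all genes tested, 6.60% had groups that did not overlap in either direction.

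Bnip3 was highest in western diet replicates 1 and 2, the libraries of that group with most red cell transcripts. Leaving them out therefore had to lower its difference. Without both, the difference was 0.20 (SE 0.10, limma adjusted p = 0.537), and without replicate 1 alone it was 0.29 (SE 0.11). Among libraries with Y-linked transcripts it was 0.23 (SE 0.12, limma adjusted p = 0.575), with 108 TPM in the 1 western diet library. It stayed positive under all 21 alternative settings, but leaving out libraries could not turn its sign, since the groups did not overlap.

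The Bnip3 promoter window (RefSeq, GRCm38.p6, chr7:138909457-138909756, minus strand) is shown because it is the member window with the palindrome CACGTG, in capitals, whose strands each read ACGTG. The palindrome begins 108 bases upstream of the start and is found in 7.15% of all windows.
Bnip3: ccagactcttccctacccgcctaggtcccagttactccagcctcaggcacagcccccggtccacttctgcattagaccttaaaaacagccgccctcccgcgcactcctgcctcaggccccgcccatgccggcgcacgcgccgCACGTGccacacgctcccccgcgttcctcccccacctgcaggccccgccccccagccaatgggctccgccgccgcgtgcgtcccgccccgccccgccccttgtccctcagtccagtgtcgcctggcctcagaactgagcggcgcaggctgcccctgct

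Genes of hypoxia and FOXO signalling, pathways known to regulate Bnip3, were all tested (17 of 17). None was called by limma, and 5 had an unadjusted p under 0.05, with 4 of those higher. Among all genes tested, 11.7% had such a p, 9.20% in the higher direction. Without overlap, 4.85% of all genes tested were higher and 1.75% lower. The median difference over the 17 was 0.15, against 0.06 over all genes tested, and 12 had a higher mean (10 with median-of-ratios or quantile scaling). Egln3, a prolyl hydroxylase that marks hypoxia-inducible factors for decay and is itself hypoxia-induced, was at 46.5, 46.8, 47.6 and 36.5 TPM in western diet libraries, against 29.1, 20.3, 28.5 and 30.0 TPM in controls. All western diet values lay above all controls. The difference was 0.70 (SE 0.13, limma adjusted p = 0.0630), the smallest p among the 96 tested genes of the wider lists. It was called with median-of-ratios scaling (limma adjusted p = 0.0312), quantile scaling (0.0378), library weights (0.0251) and without western diet replicate 4 (0.0256), and its adjusted p ranged up to 0.578. Among libraries with Y-linked transcripts the difference was 0.44 (SE 0.20).

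P4ha1, a collagen prolyl hydroxylase, was at 21.3 ± 1.97 TPM with western diet and 14.2 ± 2.75 TPM in controls, without overlap (difference 0.57, SE 0.13, limma adjusted p = 0.121). Egln1, the main oxygen-sensing prolyl hydroxylase, was at 142 ± 10.1 TPM and 119 ± 3.65 TPM, western diet first, without overlap (difference 0.25, SE 0.08, limma adjusted p = 0.243). For Egln1 the difference was 0.13 (SE 0.09) among libraries with Y-linked transcripts and 0.16 (SE 0.07) without the 2 western diet libraries high in red cell markers. In the other direction lay Slc2a1, the glucose transporter GLUT1, which is also hypoxia-induced and was picked out after its values were seen. It was at 4.83 ± 0.889 TPM with western diet and 6.04 ± 0.354 TPM in controls, without overlap (difference -0.28, SE 0.13, limma adjusted p = 0.417). Of 14 genes of the list with a promoter window, 9 held ACGTG in at least 1 window, against 21.8% of all genes. The list was drawn up from genes of hypoxia and FOXO signalling, so this share follows partly from that choice. The 21.8% is over all 27025 genes with a window and is not limited to the genes tested.

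The 25 bases around the match in Bnip3 and in the 4 genes above are set together to show how far the surroundings differ, with the match in capitals as read on the gene's strand (GRCm38.p6, RefSeq). P4ha1 shows the reverse complement, CACGT.
Bnip3, chr7:138909600-138909624, minus strand: gcacgcgccgCACGTGccacacgct
Egln3, chr12:54204089-54204113, minus strand: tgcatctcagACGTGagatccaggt
Egln1, chr8:124949308-124949332, minus strand: gccgtggtgtACGTGcagcgcgcgc
P4ha1, chr10:59323270-59323294, plus strand: tgacagagcgCACGTagcgagggct
Slc2a1, chr4:119108699-119108723, plus strand: cccgccccggACGTGctccccaggc
The 4 list genes were taken because their groups did not overlap, and only genes with a match could be shown. That all 4 held the core therefore follows partly from the choice. The part of the core in their levels was not tested.

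**Figure D5:**
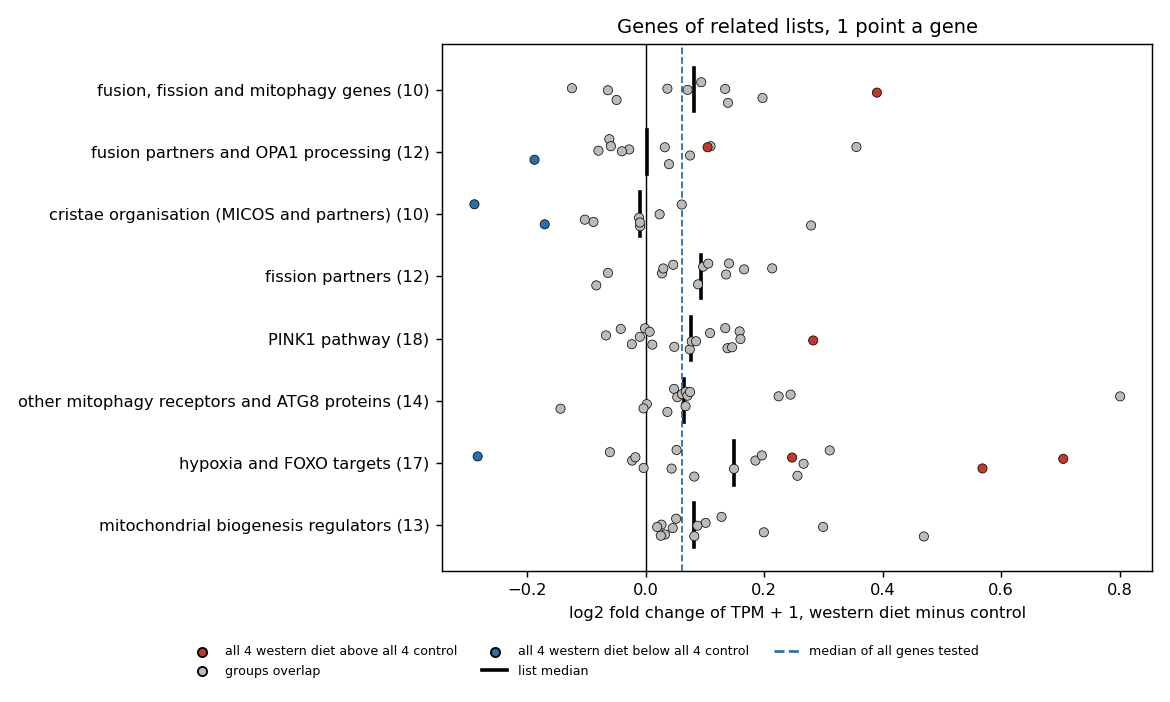
Log2 fold change of TPM + 1 (western diet minus control) for the 10 genes and 7 related lists, 1 point a gene, with the number tested in brackets, a bar at each list's median and a dashed line at the median of all genes tested, 0.06. Red points, such as Egln3 at 0.70, have all western diet libraries above all controls and blue points, such as Minos1 at -0.29, all below.

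Bnip3l (ENSMUSG00000022051, chr14:66985239-67008877) encodes NIX, the receptor that clears mitochondria from maturing red cells. It was at 52.3, 50.4, 51.7 and 45.1 TPM in western diet libraries, against 46.2, 40.9, 45.7 and 48.2 TPM in controls. Western diet replicates 1, 2 and 3 lay above all controls and replicate 4, the one with Y-linked transcripts, lay among them. The difference was 0.14 (SE 0.09, 95% interval -0.05 to 0.33, limma adjusted p = 0.570). The ratio of Bnip3l to Bnip3 TPM was 0.417 ± 0.0645 with western diet and 0.493 ± 0.0268 in controls (SD, n = 4 each), with overlap.

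Fundc1 (ENSMUSG00000025040, chrX:17556564-17572325) encodes an outer membrane receptor of hypoxic mitophagy. It was at 11.9, 16.4, 18.8 and 11.1 TPM in western diet libraries, against 11.6, 10.2, 14.8 and 15.7 TPM in controls. It was the most variable of the 10 genes, and each group held both low and high libraries. Its difference was 0.13 (SE 0.18, 95% interval -0.26 to 0.52, limma adjusted p = 0.821).

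Of 15 other mitophagy receptors and ATG8 proteins, 14 were tested and 0 were called by limma. For 2 the unadjusted p was under 0.05, against 11.7% of all genes tested. Bcl2l1, which encodes the survival protein BCL-xL, abundant in the red cell lineage, was at 39.6, 27.1, 12.3 and 10.5 TPM in western diet libraries, against 9.97, 8.61, 10.9 and 14 TPM in controls. Only replicates 1 and 2 stood above the controls. Their red cell markers summed to 9056 and 3329 TPM, and those of control replicate 1 to 2963 TPM. The part of red cell transcripts in the level of Bcl2l1 was not tested. The difference was 0.80 (SE 0.34, limma adjusted p = 0.402) with all libraries, 0.08 without replicates 1 and 2, and -0.03 among libraries with Y-linked transcripts. Bcl2l13, a mitophagy receptor, was at 15.1 ± 1.37 TPM with western diet and 12.8 ± 1.06 TPM in controls, and the ATG8 protein gene Gabarapl1 at 56.1 ± 14 TPM and 46.2 ± 3.82 TPM, western diet first. Both had overlapping groups.

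Mitochondrial biogenesis regulators, the counterpart of mitophagy, had higher means with western diet in 13 of 13 tested genes, but in 7 of 13 with median-of-ratios and 6 of 13 with quantile scaling. None was called by limma and 1 had an unadjusted p under 0.05, against 11.7% of all genes tested. That gene was Esrrg, an orphan nuclear receptor of oxidative metabolism, at 9.11 ± 1.03 TPM with western diet and 7.27 ± 1.44 TPM in controls (difference 0.30, SE 0.13, limma adjusted p = 0.422). Ppargc1a, the coactivator PGC-1 alpha, was at 20.9 ± 7.28 TPM and 14.6 ± 3.85 TPM, and its relative Ppargc1b at 3.30 ± 0.922 TPM and 2.72 ± 0.593 TPM, western diet first, all with overlap. The difference of Ppargc1a was 0.47 (SE 0.24) with all libraries, 0.09 (SE 0.22) without the 2 western diet libraries high in red cell markers and -0.06 (SE 0.29) among libraries with Y-linked transcripts. That of Esrrg was 0.16 (SE 0.22) among the libraries with Y-linked transcripts. Over all 7 lists, 96 of 101 genes were tested and 0 were called by limma. An unadjusted p under 0.05 was found for 12, against 11.7% of all genes tested. Groups did not overlap for 9 of the 96, 5 higher and 4 lower with western diet. Of all genes tested, 6.60% had groups that did not overlap.

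Among the libraries with Y-linked transcripts alone, 1 with western diet and 4 controls, the difference was -0.17 for Mfn1, 0.11 for Opa1, -0.20 for Dnm1l, -0.19 for Fis1 and -0.12 for Mff. It was -0.17 for Pink1, -0.0013 for Bnip3l and -0.20 for Fundc1. All of these values rest on western diet replicate 4. That library also held the most kidney marker transcripts, 79.0 TPM, and the lowest value of 25.7% of all genes tested. The values cannot separate sex from other traits of that library.

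Across all 8 libraries, the extremes of the 10 genes fell unevenly. Control replicate 2 held the lowest value of 7 of the 10 genes, and of 36.5% of all genes tested. Western diet replicate 1 held the highest value of 5 of the 10, and of 24.5% of all genes tested.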

How the data were processed

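Heart RNA was sequenced in 8 libraries, made per the labels' protocols from polyadenylated RNA with a stranded TruSeq kit. The authors deposited 1 table of gene-level TPM. Kallisto, DESeq2 and GRCm38 are named in the submitters' processing notes, and neither versions nor the annotation used nor how transcripts were summed to genes is given in the sources used here. TPM keeps no depth, and its sums per library were 941318 to 953448. Identifiers were named from GENCODE vM21, which matched 29732 of 30153.

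Groups come from the labels, and replicates are numbered in accession order. The filter kept the 10969 genes that reached 1 TPM in 4 or more of 8 libraries. They were tested with limma 3.58.1 (R 4.3.3) on log2(TPM + 1) (intensity trend, two-sided, Benjamini-Hochberg over all genes tested). The test was checked on simulated data in 10 runs, each with 200 altered genes among 10969: 89.3% of 2-fold and 99.1% of 4-fold changes were recovered and 5.53% of calls were false. Noise was drawn independently for each gene, and no change under 2-fold was simulated. The check therefore does not cover shared shifts between libraries, or changes as small as that of Bnip3 (fold 1.31). The 10 genes, the 7 lists and the marker genes were chosen with earlier results of these data known. From each list the 3 tested genes of smallest unadjusted p were named, and predicted symbols were not named. Of these, 1 gene is not reported here. For the 3 of the 10 genes with the largest absolute difference, the 3 genes of highest Pearson r were named too. In all, 20 alternative settings were planned, and 1, without the 2 western diet libraries highest in red cell markers, was added after the marker levels were seen. Near-identical copies were sought with BLAST 2.17.0 (at least 90% identity over at least 50% of length). Of 64 copies found, 5 have values here and reached at most 0.807 TPM. The levels of the other copies are unknown. Values exist for 2 of 5 copies of Bnip3 and for 1 of 55 copies of Mfn1. Tables and figures used Python 3.11.15, pandas 2.3.3 and matplotlib 3.10.9.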

Additional observations from a re-analysis of the deposited data

Results flagged for a closer look

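In groups of 4 libraries, a value was singled out when its gap to the nearest other library, divided by the range of the group, exceeded Dixon's 95% critical value. None of the 10 genes had such a value. Among 62 groups tested, 4 did, and chance gives about 1 in 20. Egln3 was at 36.5 TPM in western diet replicate 4, with 46.5 to 47.6 TPM in western diet replicates 1, 2 and 3. Egln3 was also at 20.3 TPM in control replicate 2, against 28.5 to 30.0 TPM in the other controls. Afg3l2 was at 49.7 TPM in control replicate 2, against 56.7 to 56.9 TPM in the other controls. Stoml2 was at 83.5 TPM in control replicate 1, against 78.2 to 79.0 TPM in the other controls.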

How the results depend on the processing

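None of the 10 genes was called under any of the 21 alternatives. Mfn1, Mfn2 and Bnip3 kept their sign in all 21, and Bnip3 ranged from 0.20 to 0.47 with limma adjusted p from 0.108 to 0.858. For Bnip3, leaving out libraries could not turn the sign, since its groups did not overlap. The count of all genes called, 33 (25 higher, 8 lower), was 5 with no filter, 15 with a mean of at least 5 TPM, 61 with quantile scaling (40 higher, 21 lower), 49 with median-of-ratios scaling (31 higher, 18 lower) and 108 with library weights. It was 54 with a term for Y-linked transcripts, 76 in the libraries with such transcripts, 5 without the libraries with atrial transcripts and 10 without the 2 high in red cell markers. Leaving out 1 library gave 8 to 95: 54 without western diet replicate 3, 95 without western diet replicate 4, and 15, 9, 13 and 8 without control replicates 1, 2, 3 and 4. Of the list genes, 1 (Egln3) was called with median-of-ratios scaling, quantile scaling or library weights, and 0 to 1 when 1 library was left out, with 1 without western diet replicate 4. The median difference over all genes tested, 0.06, was -0.07 with the Y-linked term and in those libraries alone, and signs turned there for Mff (-0.12), Pink1 (-0.17), Bnip3l (-0.0013), Fundc1 (-0.20), Nbr1 (-0.0020), Bcl2l1 (-0.030) and Ppargc1a (-0.059); the fit on those libraries has 1 western diet library, whose spread is assumed like that of the controls. Without the 2 libraries high in red cell markers, Mff (-0.021), Pink1 (-0.15) and Gabarapl1 (-0.044) turned. Both libraries were of the western diet group, and control replicate 1, at 2963 TPM of red cell markers, was kept. Median-of-ratios scaling turned Opa1 (-0.0066) and Mff (-0.042), and quantile scaling Mff (-0.014). Leaving out 1 library gave ranges that crossed 0 for Pink1 (-0.012 without western diet replicate 1, to 0.18), Fis1 (-0.16 to 0.018 without western diet replicate 3), Dnm1l (-0.13 to 0.0034 without control replicate 3, and 0.00096 without western diet replicate 4), Opa1 (-0.0057 to 0.17) and Mff (-0.019 to 0.089), both lowest without control replicate 2. Among list genes, median-of-ratios scaling left 4 of 14 other receptors and ATG8 proteins with a higher mean, against 12 in the reported fit. With that scaling the median difference of this list went from 0.064 to -0.015. The median over all genes tested went from 0.061 to -0.0066. The part of that general shift in the count was not tested. No paired analysis was possible because the labels carry no replicate numbers. Depth is unknown, so no counting error is given.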

Other observations

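Genes whose log2(TPM + 1) over the 8 libraries was most like that of Bnip3, Mfn2 and Bnip3l are given as a description, since libraries share their overall composition and 139 to 588 tested genes had a Pearson r above 0.9 with 1 of the 3. For Bnip3 these were Myc (r = 0.992, a transcription factor of growth), Galnt18 (r = 0.980) and Zfp282 (r = 0.974). Myc was at 2.19, 1.73, 1.15 and 1.20 TPM in western diet libraries, against 0.971, 0.587, 0.705 and 0.847 TPM in controls. It reached 1 TPM only with western diet, so it passed the filter on low values only through that group. It was also picked for its likeness to Bnip3, so its separation of the groups is no separate result. For Mfn2 they were Gfpt1 (r = 0.990), the first enzyme of hexosamine synthesis, Usp19 (r = 0.990), a deubiquitinase, and Esyt2 (r = 0.988), an endoplasmic reticulum tether to the plasma membrane. For Bnip3l they were St6galnac6 (r = 0.981), Lman1 (r = 0.977) and Nap1l4 (r = 0.975).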
